A study of Mus musculus with 48 samples.

Results

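Heart and spleen at time 2 made up 12 of the 48 arrays of a mouse tissue series, with 1 Affymetrix MG-U74Av2 oligonucleotide array per RNA sample. They were taken by the sample titles alone, as every array titled heart or spleen at time 2. The 4 groups were A/J heart, C57BL/6J heart, A/J spleen and C57BL/6J spleen, each with 3 arrays. All came from males aged 3 months that the labels describe as littermates and biological replicates. A/J and C57BL/6J are inbred strains, and no treatment or engineered allele is named for any group. Tissue was homogenised in Trizol and about 20 micrograms of total RNA were labelled. The sources used here do not say what times 1 and 2 stand for, whether a mouse gave both organs, or how many litters there were. All p-values thus rest on the spread among these animals alone.

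The heart is mostly cardiac muscle by mass, whose sarcomeres of myosin, actin and troponin contract when calcium leaves the sarcoplasmic reticulum, and whose packed mitochondria burn mainly fatty acids. Between the muscle cells lie endothelium and fibroblasts. The spleen filters blood through a red pulp rich in macrophages, which clear old red cells and recycle their iron, and its white pulp holds B and T lymphocytes around small arteries. In mice the spleen also keeps making red cells in adult life. Because each array reads RNA of a whole tissue piece, fewer cells of a type and less RNA per cell cannot be told apart.

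Values are the authors' log2 signals of probe sets, each a group of short probes that reads 1 transcript or several, so that 1 log2 unit is 2-fold. A difference is heart minus spleen, fitted in limma with strain as an additive block, and ± marks the fit's standard error (SE). It was called where the Benjamini-Hochberg adjusted p over 12422 probe sets was below 0.05. Where several probe sets read a gene, the brightest on average over the 48 arrays stood for it. Where 3 values are given for a tissue they are the lowest, the median and the highest of its 6 arrays.

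The labelled tissues were checked against lists of their defining markers. The mean of the sarcomere list lay between 12.28 and 12.53 in the hearts and between 8.24 and 8.46 in the spleens. The B cell list lay between 8.58 and 8.76 in the hearts and between 10.80 and 11.24 in the spleens. Each array thus carried the markers of its label. Arrays of 1 group correlated at 0.985 to 0.996, and no heart correlated with a spleen above 0.885. The mean replicate SD was 0.106 in A/J hearts, 0.102 in C57BL/6J hearts, 0.143 in A/J spleens and 0.158 in C57BL/6J spleens.

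Some arrays gave raised signal for markers of another tissue, and whether such tissue was carried along was not tested. The exocrine pancreas list averaged 8.90 to 9.02 in the hearts. It averaged 11.89 in C57BL/6J spleen 1 and 10.74 in C57BL/6J spleen 3, against 8.85 to 9.32 in the other 4 spleens. Trypsin gene Prss2 read 13.92 and 12.64 in those 2 spleens. It also read 9.80 in A/J spleen 3, where the list averaged 9.32, against 7.45 to 7.69 in the hearts. The hepatocyte list averaged 8.37 to 8.67 in the hearts and 10.13, 9.47 and 9.27 in the A/J spleens, with albumin (Alb) at 13.27, 12.38 and 11.92 there. In the C57BL/6J spleens the list averaged 8.39, 8.30 and 9.05, with albumin at 8.42, 8.47 and 10.31, so that C57BL/6J spleen 3 also lay above every heart. In C57BL/6J heart 2 the lung epithelium list averaged 10.29, against 9.56 to 9.80 in the other 5 hearts, with the club cell gene Scgb1a1 at 12.61. The gap between the 3' and 5' control probe sets of Gapdh, a sign of RNA quality, was 0.083 to 0.230 in the hearts and 0.482 to 0.898 in the spleens. The same gap for actin was 0.131 to 0.268 in the hearts and 0.093 to 0.141 in the spleens. The 2 controls thus did not order the organs alike. Per the labels, the scan files of time 2 were numbered as 1 run of 24, called an array run here, in which the hearts were 19 to 24 and the spleens 7 to 12, so that this order and tissue cannot be told apart. The part of these differences in the results below was not tested, except where values without an array are given.

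Of 12422 probe sets, 7842 (63.1%) differed between heart and spleen, 4385 (35.3%) with the higher signal in heart and 3457 (27.8%) with the higher signal in spleen. Differences of at least 2-fold were fewer, with 786 probe sets (6.33%) higher in heart and 1044 (8.4%) higher in spleen. Of the 8251 genes read by 1 probe set each, 35.5% were called higher in heart and 30.2% higher in spleen, and at least 2-fold differences held for 7.3% and 8.87%. In 22.8% of genes all 6 hearts lay above all 6 spleens, and in 21.8% all 6 spleens lay above all 6 hearts. The counts of the gene lists below are read against these shares. Among genes with 1 symbol the differences ran from -5.52, for an immunoglobulin segment, to 8.34, for a myosin light chain.

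**Figure D1:**
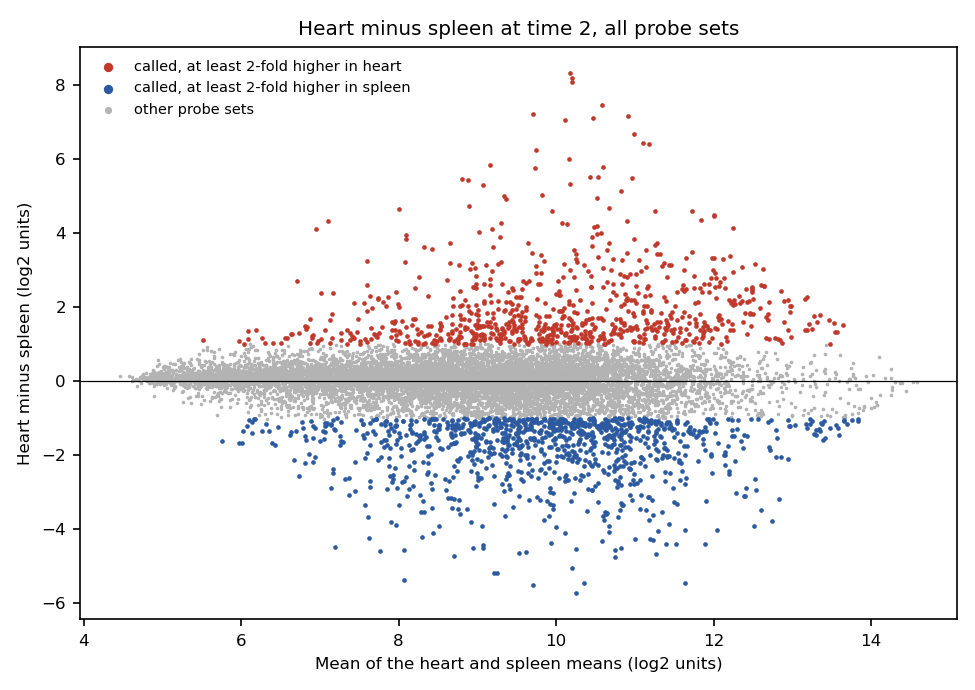
Heart minus spleen (vertical axis, log2 units) against the mean of both organs' means (horizontal axis, log2 units) for the 12422 probe sets at time 2. Red points are the 786 probe sets called and at least 2-fold higher in heart, blue points the 1044 called and at least 2-fold higher in spleen, and the red points reach further from 0 than the blue.

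The contractile apparatus gave the largest differences of the comparison. Of 25 measured genes of the sarcomere list, 23 were called higher in heart and 1 higher in spleen, and in 22 of them all hearts lay above all spleens. The median difference of the list was 4.18, against 0.058 over all 8251 genes. Myl3, the essential myosin light chain of ventricle and slow muscle, read 14.32, 14.35 and 14.39 in hearts and 5.70, 5.97 and 6.32 in spleens. Its difference was 8.34 ± 0.090 (adjusted p = 3.04e-16). Myh6, the alpha myosin heavy chain of the adult mouse ventricle, read 14.26, 14.31 and 14.33 in hearts and 5.98, 6.09 and 6.19 in spleens, a difference of 8.21 ± 0.050. Tnnt2, cardiac troponin T, read 14.29, 14.32 and 14.35 in hearts and 6.58, 6.82 and 7.22 in spleens, a difference of 7.47 ± 0.084. The 6 hearts were nearly level for each of these genes, and so were the 6 spleens.

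Structural partners of these proteins were higher in heart as well. Ankrd1, an ankyrin repeat protein of the I band that responds to stretch, read 13.04, 13.32 and 13.66 in hearts and 5.97, 6.06 and 6.31 in spleens and differed by 7.22 ± 0.10. Myl2, the ventricular regulatory light chain, differed by 7.17 ± 0.062, and the troponin subunits Tnnc1 and Tnni3 by 6.68 ± 0.074 and 6.45 ± 0.070. Myom2, which cross-links myosin in the M band, differed by 5.75 ± 0.086, and Mybpc3, the cardiac myosin-binding protein C, by 4.47 ± 0.060. Cardiac actin Actc1 was read by 2 probe sets, with 4.14 for the brighter and 8.08 for the other. Tpm1, tropomyosin alpha, was the member called the other way: it read 8.58, 8.72 and 8.91 in hearts and 9.65, 9.79 and 10.13 in spleens, a difference of -1.14 ± 0.073. Signals of Myl3, Myh6 and Tnnt2 in hearts lay close to the highest value on these arrays, 14.67, and whether the differences are capped there was not tested.

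Promoters were compared because the sarcomere genes moved together. The letters of the CArG box, to which serum response factor binds, stood within 250 bases before to 50 bases after the start in 9 of 28 promoters of the list (32.1%, 7 of 21 genes with an entry), read on both strands. Of all 32851 promoters of the table the share was 1.63%, and it was 3.34% for genes at least 2-fold higher in heart and 1.44% for genes at least 2-fold higher in spleen. For genes read on the array it was 1.59%. Other lists reached 2 of 6 promoters (lung epithelium) and 6 of 24 (cardiac transcription factors). The list of cardiac transcription factors shares Csrp3, Fhl2 and Ldb3 with the sarcomere list, so that the 2 lists are not separate. A match describes the letters and is no measured site. The promoter of Myl3 is shown as the gene with the largest difference: the 250 bases before its start at chr9:110763428-110763677 (plus strand, RefSeq GRCm38.p6), with the CArG box in capitals 85 to 76 bases before the start.
Myl3: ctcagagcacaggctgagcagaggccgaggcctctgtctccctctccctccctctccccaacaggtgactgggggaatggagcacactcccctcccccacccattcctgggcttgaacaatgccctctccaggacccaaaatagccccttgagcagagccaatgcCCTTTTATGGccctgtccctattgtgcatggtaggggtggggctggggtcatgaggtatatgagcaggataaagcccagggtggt

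Calcium handling and electrical genes were higher in heart almost without exception. Of 17 measured calcium handling genes 16 were called higher in heart and none higher in spleen, 9 of them by at least 2-fold, with a median of 1.096. Ryr2, the calcium release channel of the cardiac sarcoplasmic reticulum, read 11.75, 12.08 and 12.38 in hearts and 6.04, 6.25 and 6.38 in spleens, a difference of 5.85 ± 0.10 (adjusted p = 1.11e-14). Atp2a2, the pump that returns calcium to the store, read 13.41, 13.50 and 13.76 in hearts and 8.71, 8.96 and 9.13 in spleens, a difference of 4.59 ± 0.077. The ranges of both genes were far apart. Hrc, a calcium-binding protein of the store, differed by 3.67 ± 0.058, the L-type channel Cacna1c by 2.82 ± 0.10 and the sodium-calcium exchanger Slc8a1 by 2.55 ± 0.11. S100a1 differed by 4.70 ± 0.075, while its other probe sets gave -0.10 and 0.55.

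All 20 measured ion channel and gap junction genes were called higher in heart, 7 of them by at least 2-fold. Abcc9, the sulfonylurea receptor of the ATP-sensitive potassium channel, read 9.94, 10.24 and 10.47 in hearts and 6.38, 6.61 and 6.96 in spleens, a difference of 3.57 ± 0.11. The potassium channel Kcnk3 differed by 3.22 ± 0.11, Kcna5 by 2.11 ± 0.091 and Fxyd1 (phospholemman, a regulator of the sodium pump) by 2.95 ± 0.11. Gja1, connexin 43 of the ventricular gap junction, read 12.94, 13.34 and 13.55 in hearts and 10.64, 11.20 and 11.72 in spleens, a difference of 2.05 ± 0.18. The median of the list was 0.64, so most of its members differed by less than 2-fold.

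Fuel oxidation formed the broadest block of heart-high genes. In the respiratory chain and ATP synthase list 61 of 67 genes were called higher in heart and 2 higher in spleen, and 53 passed 2-fold, with a median of 1.74. Fatty acid oxidation counted 27 of 29 (median 2.25), the tricarboxylic acid cycle with pyruvate oxidation 21 of 24 (median 2.15) and branched-chain amino acid breakdown 12 of 13 (median 1.86). Among mitochondrial ribosomal proteins 52 of 61 were higher in heart, but the median was 0.76 and 15 passed 2-fold. These proteins make up the ribosome that translates the mitochondrion's own messengers.

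Fatty acid genes were among the larger metabolic differences. Fabp3, the heart-type fatty acid carrier of the cytosol, read 13.37, 13.76 and 13.80 in hearts and 6.35, 6.48 and 6.94 in spleens, a difference of 7.07 ± 0.11 (adjusted p = 8.71e-15). Lpl, which frees fatty acids from blood lipoproteins, read 12.79, 13.43 and 13.79 in hearts and 7.59, 8.26 and 8.75 in spleens and differed by 5.15 ± 0.21. Pdk4, the kinase that switches off pyruvate dehydrogenase, read 13.91, 13.996 and 14.18 in hearts and 8.80, 9.69 and 10.30 in spleens, a difference of 4.35 ± 0.17. In each of these 3 genes every heart lay above every spleen, which the naming rule required of Fabp3. The spleens spread more widely than the hearts. The electron carriers of beta-oxidation Etfdh and Etfa differed by 3.91 ± 0.13 and 3.48 ± 0.15, and the medium-chain dehydrogenase Acadm by 3.38 ± 0.10. Cpt1a, the liver-type carnitine palmitoyltransferase, was the member called higher in spleen, at 10.73, 10.80 and 10.93 in hearts and 11.72, 11.82 and 11.87 in spleens, a difference of -0.99 ± 0.052.

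In the respiratory chain the muscle subunits stood first. Cox7a1, the muscle form of cytochrome oxidase subunit 7A, read 12.74, 12.87 and 13.02 in hearts and 6.44, 6.58 and 6.87 in spleens, a difference of 6.24 ± 0.086. Sdha, the flavoprotein of complex II, differed by 3.56 ± 0.13, cytochrome c (Cycs) by 3.18 ± 0.083 and Ndufa5 of complex I by 3.02 ± 0.077. The cycle enzymes Idh2 and Sucla2 differed by 3.49 ± 0.060 and 3.32 ± 0.10, and Oxct1, which lets heart burn ketone bodies, by 3.06 ± 0.10. Mcee and Hibadh, late steps in the breakdown of branched-chain amino acids, differed by 2.49 ± 0.10 and 2.37 ± 0.088.

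Energy buffering and oxygen storage added 11 of 12 genes higher in heart, with 6 past 2-fold. Ckmt2, the mitochondrial creatine kinase of muscle, read 13.96, 14.04 and 14.09 in hearts and 6.74, 6.88 and 7.32 in spleens, a difference of 7.13 ± 0.087. Myoglobin (Mb) read 14.34, 14.39 and 14.42 in hearts and 7.81, 7.97 and 8.22 in spleens, a difference of 6.40 ± 0.074, but its other probe set gave -0.14 and was not called. Of 28 glycolysis and glycogen genes 23 were called higher in heart and 3 higher in spleen. The muscle glycogen phosphorylase Pygm read 12.97, 13.16 and 13.37 in hearts and 6.91, 7.20 and 7.34 in spleens, a difference of 6.01 ± 0.093. Hk1, the hexokinase of most tissues, read 11.05, 11.17 and 11.23 in hearts and 12.33, 12.55 and 12.66 in spleens, a difference of -1.37 ± 0.066 in favour of spleen.

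Hormone and growth factor genes of the heart were led by Nppb, brain natriuretic peptide, which read 12.83, 13.32 and 13.62 in hearts and 7.51, 7.71 and 8.0 in spleens, a difference of 5.53 ± 0.13. Its atrial relative Nppa read 11.41, 12.35 and 12.93 in hearts and 10.14, 10.61 and 10.78 in spleens, a difference of 1.65 ± 0.25. Corin, the protease that activates the atrial peptide, differed by 3.64 ± 0.10, and the growth factors Fgf1 and Vegfb by 2.63 ± 0.094 and 2.51 ± 0.073. Of 18 measured members 16 were called higher in heart, and Igf1 was called the other way at -0.42 ± 0.066.

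Cardiac transcription factors and cofactors were higher in heart in 21 of 24 cases, 12 of them by at least 2-fold, with a median of 0.96. Csrp3, a LIM protein of the Z disc and nucleus, read 12.74, 13.05 and 13.08 in hearts and 7.92, 8.04 and 8.24 in spleens, a difference of 4.95 ± 0.078, and the LIM proteins Fhl2 and Ldb3 differed by 4.01 ± 0.13 and 3.44 ± 0.093. Csrp3, Fhl2 and Ldb3 are also counted in the sarcomere list. Smyd1, a muscle histone methyltransferase, differed by 2.61 ± 0.10. Nkx2-5, a homeobox factor of heart development, read 10.75, 10.95 and 11.04 in hearts and 9.06, 9.26 and 9.39 in spleens, a difference of 1.69 ± 0.073. Gata6 differed by 1.75 ± 0.11 and Gata4 by 0.82 ± 0.10. Nfatc1, a calcineurin target that acts in heart valves and in lymphocytes, was called the other way at -1.88 ± 0.10.

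**Figure D2:**
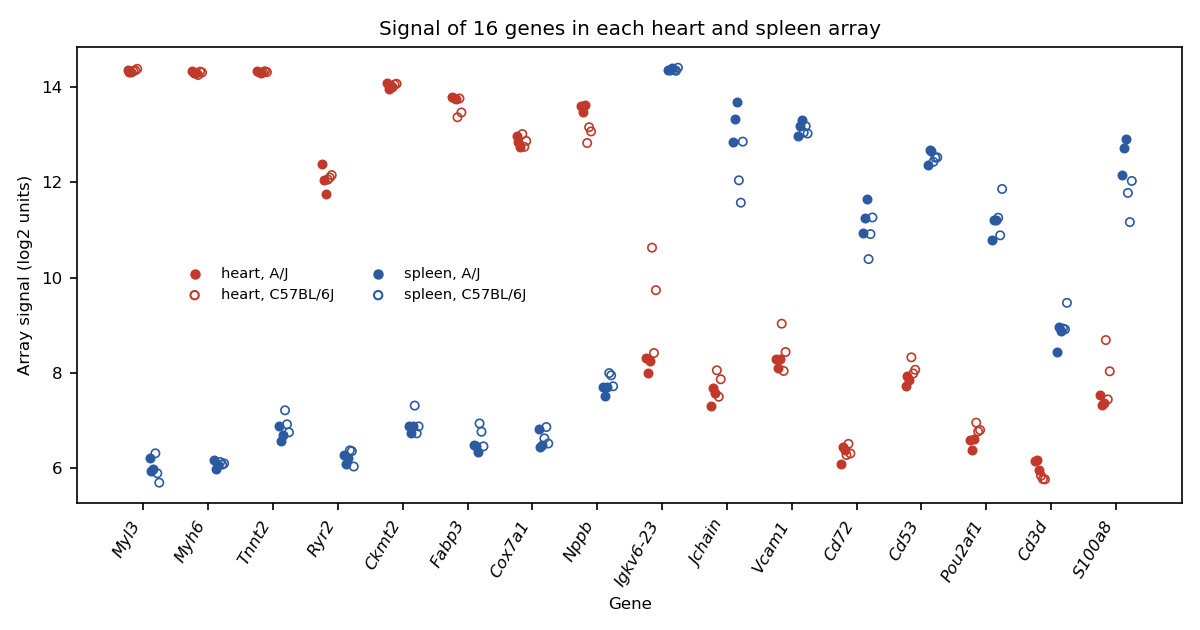
Array signal (log2 units, vertical axis) of 16 genes in each of the 12 arrays, with hearts in red to the left and spleens in blue to the right for each gene, filled points for A/J and open points for C57BL/6J. In all 16 genes the heart and spleen points are separated by a gap, which the naming rule required of those with the largest differences. In some, such as Nppb in hearts, the strains lie apart.

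Pairs of related genes were compared because many proteins have a muscle form and a form of other cells. Some listed pairs instead set a gene of many tissues or a heart factor beside a relative of blood cells, such as the integrin beta subunits and the GATA factors. Of 48 listed pairs 38 had both genes measured. In 16 pairs the gene named first was called higher in heart and its relative higher in spleen, in 9 both were higher in heart, in 2 both were higher in spleen, and in 11 at least 1 gene was not called. These counts rest on the brightest probe set. By it the second forms Itga4 (0.064), Vav1 (0.057) and Actb (-0.55) were not called. Their other probe sets were called, at -1.35 and -1.63 for Itga4, -1.34 and -1.85 for Vav1 and 2.18 for Actb. Myh6 stood beside non-muscle myosin Myh9, which read 11.01, 11.12 and 11.30 in hearts and 12.92, 13.20 and 13.25 in spleens, a difference of -2.01 ± 0.075. The sarcoplasmic pump Atp2a2 stood beside Atp2a3, the form of blood cells, which read 10.21, 10.44 and 10.73 in hearts and 11.94, 12.61 and 12.98 in spleens, a difference of -2.09 ± 0.11. Both partners were lower in every heart than in every spleen.

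Of 12 pairs of mitochondrial, sugar and energy metabolism 4 were called in opposite directions, 5 were both higher in heart and in 3 at least 1 gene was not called. Cox6a2 read 14.19, 14.25 and 14.33 in hearts and 9.59, 9.71 and 10.03 in spleens, a difference of 4.48 ± 0.074, whereas Cox6a1 read 12.59, 12.71 and 12.76 in hearts and 12.71, 13.35 and 13.62 in spleens, a difference of -0.58 ± 0.11 with overlapping ranges. Pgam2 differed by 5.34 ± 0.21 and Pgam1 by -0.27 ± 0.067. Hk2 differed by 3.41 ± 0.12, opposite to Hk1, although its other probe set gave 0.061 and was not called. The elongation factor forms Eef1a2 and Eef1a1 differed by 4.61 ± 0.060 and -0.69 ± 0.063. Among cytoskeletal forms, skeletal actin Acta1 differed by 5.49 ± 0.24 and cytoplasmic actin Actg1 by -1.32 ± 0.10. The muscle cofilin Cfl2 differed by 1.61 ± 0.068 and Cfl1 by -1.55 ± 0.13. Lactate dehydrogenase was 1 of the 5 metabolic pairs with both forms higher in heart: Ldhb differed by 3.43 ± 0.060 and Ldha by 1.02 ± 0.11, both higher in heart.

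**Figure D3:**
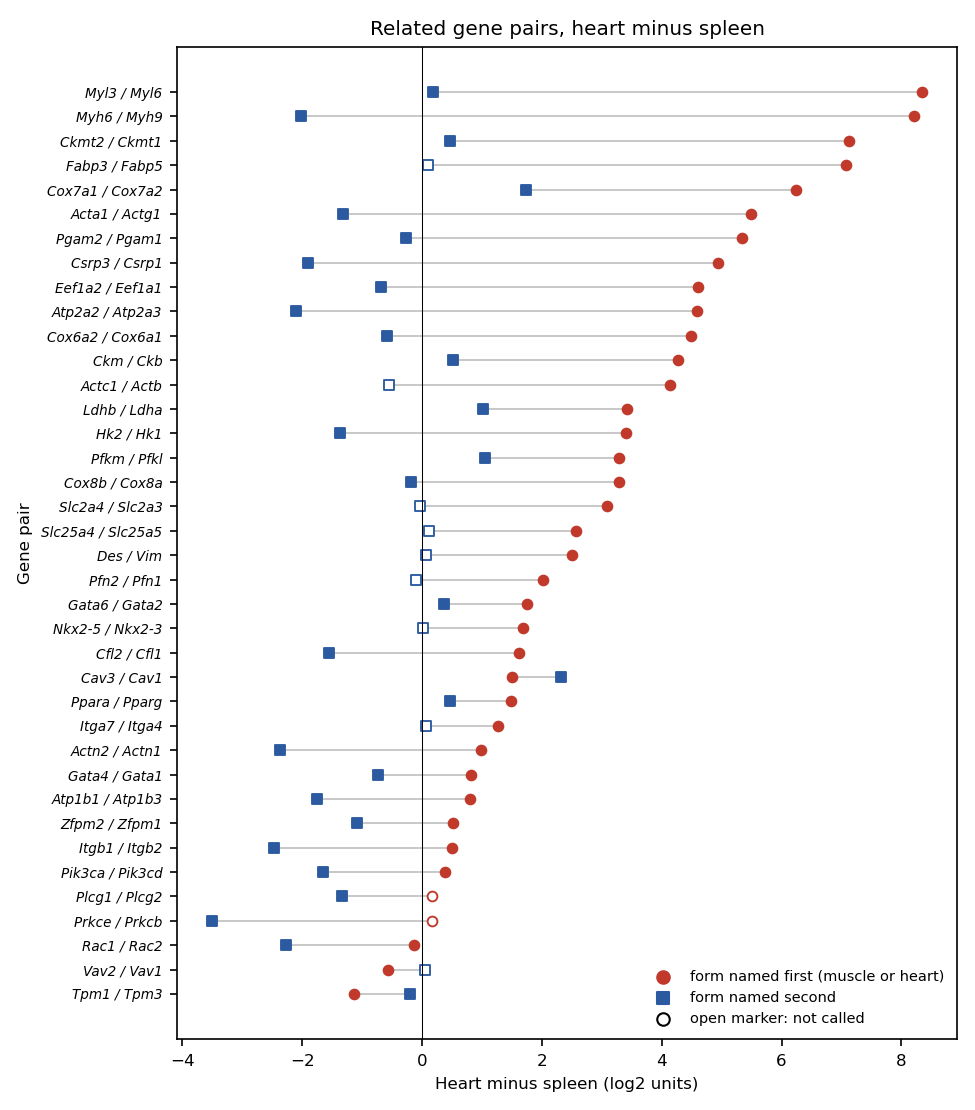
Heart minus spleen (log2 units, horizontal axis) for the 38 pairs with both genes measured, each pair on a row with the form named first as a red circle and the form named second as a blue square. Filled markers were called and open markers were not. Myh6 lies at 8.21 and Myh9 at -2.01, 1 of the 16 pairs whose markers were called on opposite sides of 0.

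Immunoglobulin and B cell genes led the spleen side. Of 27 measured B cell genes 26 were called higher in spleen, 25 of them by at least 2-fold, with a median of -2.06. The genes furthest towards spleen were immunoglobulin kappa variable segments. Igkv6-23 read 7.996, 8.37 and 10.63 in hearts and 14.35, 14.36 and 14.41 in spleens, a difference of -5.48 ± 0.32 (adjusted p = 4.68e-09). Jchain, which joins the units of IgM and IgA, read 7.30, 7.64 and 8.06 in hearts and 11.58, 12.86 and 13.69 in spleens, a difference of -5.06 ± 0.28. No heart overlapped a spleen in either gene, which the rule for naming the genes with the largest differences required. Probe sets of related immunoglobulin segments may share targets, so that they are not independent readings.

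Identity and signalling genes of B cells were higher in spleen too. Cd72, a co-receptor of the B cell surface, read 6.09, 6.35 and 6.51 in hearts and 10.39, 11.10 and 11.66 in spleens, a difference of -4.73 ± 0.16. Pou2af1, the B cell coactivator of octamer-binding factors, read 6.40, 6.70 and 6.96 in hearts and 10.79, 11.21 and 11.86 in spleens, a difference of -4.51 ± 0.14. The receptor chain Cd79b differed by -4.10 ± 0.11, the kinase Blk by -3.76 ± 0.084 and the glycoprotein Cd52 by -4.40 ± 0.076. Cxcl13, the chemokine that draws B cells into follicles, read 6.29, 6.57 and 6.75 in hearts and 10.30, 10.47 and 10.65 in spleens, a difference of -3.91 ± 0.085.

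T cell and natural killer genes were higher in spleen by smaller amounts. Of 28 T cell genes 22 were called higher in spleen, 12 of them by at least 2-fold, and 1 higher in heart, with a median of -0.82. Cd3d, a chain of the T cell receptor complex, read 5.77, 5.90 and 6.17 in hearts and 8.44, 8.93 and 9.47 in spleens, a difference of -2.99 ± 0.14, while its other probe set gave -0.042 and was not called. Il7r differed by -2.38 ± 0.12, Cd2 by -1.97 ± 0.11, Cd8b1 by -1.94 ± 0.12 and Ccr7 by -2.03 ± 0.11. The member called the other way was Zap70, at 0.21, whose other probe sets gave -0.88 and -1.29 in favour of spleen. Of 20 natural killer and cytotoxic genes 12 were called higher in spleen and 3 passed 2-fold, led by the chemokine Ccl5 at -2.85 ± 0.17. With A/J alone 7 of the 20 were called higher in spleen.

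Macrophage and dendritic cell genes were higher in spleen in 29 of 38 cases, 21 by at least 2-fold, with a median of -1.17. Vcam1, an adhesion molecule of red pulp macrophages and stroma, read 8.05, 8.30 and 9.04 in hearts and 12.97, 13.11 and 13.30 in spleens, a difference of -4.75 ± 0.14. Spic, the factor that red pulp macrophages need, read 6.00, 6.19 and 6.31 in hearts and 9.88, 10.32 and 11.17 in spleens, a difference of -4.22 ± 0.17. The protease Ctss, which trims the invariant chain in antigen-presenting cells, differed by -3.86 ± 0.10, the adaptor Tyrobp by -3.15 ± 0.10 and the complement subunit C1qb by -2.76 ± 0.11. Hmox1, which opens the haem ring of cleared red cells, read 11.14, 11.50 and 12.05 in hearts and 13.01, 13.19 and 13.28 in spleens, a difference of -1.62 ± 0.12.

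Antigen presentation genes were higher in spleen with few exceptions. Of 14 measured genes of the MHC class II pathway 13 were called higher in spleen, 12 by at least 2-fold, and none higher in heart, with a median of -2.84. H2-Aa, an MHC class II alpha chain, read 10.33, 10.96 and 11.30 in hearts and 14.28, 14.36 and 14.39 in spleens, a difference of -3.49 ± 0.11. H2-Eb1 differed by -3.11 ± 0.052 and Ifi30, a thiol reductase of antigen processing, by -3.32 ± 0.12. For MHC class I and peptide loading 16 of 19 were higher in spleen, with a median of -0.82. Within the proteasome list 18 of 39 genes were called higher in heart and 9 higher in spleen, and the largest differences in favour of spleen were those of the immunoproteasome subunits Psmb8, at -3.09 ± 0.13, and Psmb9, at -2.68 ± 0.15. Psmc6 and Psmc3 of the regulatory particle were higher in heart by 0.97 ± 0.19 and 0.96 ± 0.14.

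Signalling and cytoskeletal genes of blood cells moved with the cell markers. Of 40 immune receptor signalling genes 33 were higher in spleen (median -1.27), and of 36 genes of the haematopoietic actin cytoskeleton 32 were (median -1.80). Cd53, a tetraspanin of white blood cells, read 7.72, 7.96 and 8.33 in hearts and 12.37, 12.52 and 12.68 in spleens, a difference of -4.55 ± 0.091. Cytip, which binds cytohesin in lymphocytes, differed by -4.51 ± 0.090, protein kinase C beta (Prkcb) by -3.49 ± 0.10, the phosphatase Ptpn6 by -2.94 ± 0.085 and the actin-binding Coro1a by -3.14 ± 0.085. In the list of haematopoietic transcription factors 37 of 45 were higher in spleen and 3 higher in heart. Myb read 5.40, 5.50 and 5.57 in hearts and 8.84, 9.56 and 10.66 in spleens, a difference of -4.26 ± 0.21, against -0.073 for its other probe set, and Irf8 differed by -3.35 ± 0.080 and Lyl1 by -3.26 ± 0.11.

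Neutrophil genes split by size. Of 22 measured members 11 were called higher in spleen, 5 by at least 2-fold, and 1 higher in heart, with a median of -0.22. S100a8, a subunit of calprotectin, read 7.32, 7.498 and 8.69 in hearts and 11.17, 12.09 and 12.91 in spleens, a difference of -4.39 ± 0.30 (adjusted p = 2.00e-08). Its partner S100a9 differed by -3.14 ± 0.25, whereas the granule genes Ngp and Camp, at -1.44 ± 0.28 and -1.23 ± 0.25, had overlapping ranges. The letters GAGGAAGT, a form of the site bound by the Ets factor PU.1, stood in 8 of 21 promoters of the list (38.1%) on either strand, against 3.20% of all promoters, 0.796% for genes at least 2-fold higher in heart and 4.98% for genes at least 2-fold higher in spleen. The letters TATAAA of the TATA box stood in 10 of 21 (47.6%), against 13.6% of all promoters and 9.99% for genes read on the array. TATAAA was at least as frequent in the MHC class I and peptide loading list (8 of 16 promoters), and stood in 7 of 21 skeletal muscle promoters. It was thus not particular to neutrophil genes. The promoter of S100a8, the member with the largest difference, is shown for chr3:90668821-90669070 (plus strand, RefSeq GRCm38.p6). The GAGGAAGT match is in capitals, on the opposite strand 172 to 165 bases before the start.
S100a8: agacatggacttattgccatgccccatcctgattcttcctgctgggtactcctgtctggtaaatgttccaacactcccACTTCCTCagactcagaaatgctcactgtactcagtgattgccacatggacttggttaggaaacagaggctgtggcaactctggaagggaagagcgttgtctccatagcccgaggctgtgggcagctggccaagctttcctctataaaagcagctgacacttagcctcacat

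Erythroid genes were higher in spleen in 20 of 29 cases, 14 by at least 2-fold, and higher in heart in 2, with a median of -0.84. That pooled value joined unlike strains: the A/J arrays had a median difference of -1.57 and the C57BL/6J arrays of -0.0045. The list averaged 11.76 to 11.97 in A/J spleens and 9.89 to 10.20 in C57BL/6J spleens, against 9.82 to 10.10 in all 6 hearts. Hemgn, a nuclear protein of blood-forming cells, read 5.81, 6.16 and 6.04 in A/J hearts and 12.13, 12.73 and 12.11 in A/J spleens. It read 6.02, 6.16 and 5.77 in C57BL/6J hearts and 7.96, 6.04 and 7.89 in C57BL/6J spleens, where 1 spleen lay at the level of the hearts. Slc4a1, the band 3 anion exchanger of the red cell membrane, differed by -4.82 in A/J and -1.71 in C57BL/6J. Fitted on C57BL/6J alone, 8 erythroid genes were called higher in spleen and 6 higher in heart, and on A/J alone 26 and 2.

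The letters AGATAA, which GATA factors bind, stood in 7 of 24 erythroid promoters (29.2%), against 11.2% of all promoters and 7.26% for genes read on the array. Like shares stood in other lists, so that they were not particular to erythroid genes. They were 30.8% for megakaryocyte and platelet, 27.3% for MHC class II and 27.0% for chemokine and chemokine receptor genes. The promoter of Rhd, an Rh protein of the red cell membrane, is shown for chr4:134864286-134864535 (plus strand, RefSeq GRCm38.p6). It was chosen from the members with a match before the start by the size of its difference towards spleen. The match is in capitals 43 to 38 bases before the start.
Rhd: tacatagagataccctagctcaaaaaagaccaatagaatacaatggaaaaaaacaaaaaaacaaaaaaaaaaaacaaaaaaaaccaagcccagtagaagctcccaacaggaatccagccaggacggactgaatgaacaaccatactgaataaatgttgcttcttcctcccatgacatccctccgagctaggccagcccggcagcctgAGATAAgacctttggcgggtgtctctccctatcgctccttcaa

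Cell cycle and DNA replication genes were higher in spleen in 63 of 80 cases, 34 by at least 2-fold, and higher in heart in 8. The median difference was -0.85, being -1.30 for A/J and -0.43 for C57BL/6J. Cks2, a subunit of cyclin-dependent kinases, read 6.79, 6.99 and 7.16 in hearts and 9.06, 10.58 and 11.97 in spleens, a difference of -3.60 ± 0.30. Hmgb2, a chromatin protein of dividing cells, read 5.48, 5.63 and 6.00 in hearts and 7.58, 8.63 and 9.51 in spleens, a difference of -2.90 ± 0.25, and the flap endonuclease Fen1 differed by -2.61 ± 0.28. Ki-67 (Mki67) was called higher in heart by its brighter probe set, at 0.69, and higher in spleen by the other, at -2.65.

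The letters CCAAT stood in 52 of 79 cell cycle promoters (65.8%), against 37.4% of all promoters, and TTTGAA, the core of the CHR element of cell cycle genes, in 26 of 79 (32.9%), against 17.9%. Both were present in 24 of 79 (30.4%), against 6.95%. Over genes read on the array these 3 shares were 37.0%, 12.9% and 5.28%. CCAAT was more frequent in the MHC class I and peptide loading list (75.0%) and the MHC class II list (72.7%). In the natural killer and cytotoxic list TTTGAA reached 30.0% and both together 20.0%. The promoter of Hmgb2 is shown for chr8:57511593-57511842 (plus strand, RefSeq GRCm38.p6). It was chosen from the members with both motifs before the start by the size of its difference towards spleen. It holds CCAAT in capitals at 4 positions and TTTGAA, on either strand, at 2. None of the matches in capitals overlap.
Hmgb2: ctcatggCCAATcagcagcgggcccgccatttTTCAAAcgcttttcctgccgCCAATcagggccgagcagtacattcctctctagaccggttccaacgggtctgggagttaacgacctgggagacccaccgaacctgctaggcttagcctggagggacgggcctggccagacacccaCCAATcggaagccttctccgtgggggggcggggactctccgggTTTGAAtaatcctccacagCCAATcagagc

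Splicing and cytosolic ribosomal protein genes were mostly higher in spleen. Of 44 splicing genes 36 were called higher in spleen and 3 higher in heart, with a median of -0.77. Snrpg, a core protein of the spliceosomal small RNA particles, read 9.85, 9.94 and 10.10 in hearts and 11.87, 12.29 and 12.36 in spleens, a difference of -2.23 ± 0.090. Of 33 cytosolic ribosomal protein genes 21 were higher in spleen and 5 higher in heart, with a median of -0.46. Rpl13a differed by -1.79 ± 0.10, and Rpl32 the other way by 1.17 ± 0.083. Interferon response genes numbered 21 of 29 higher in spleen and none higher in heart.

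Genes of the vessel wall and connective tissue, which both organs hold, were mostly higher in heart. The endothelial list had 24 of 31 genes higher in heart and 3 higher in spleen (median 0.57). The fibroblast and extracellular matrix list had 42 of 56 and 5 (median 0.72). Lum and Dcn, small proteoglycans that bind collagen, differed by 3.48 ± 0.18 and 3.33 ± 0.18. Lum read 10.59, 11.54 and 12.11 in hearts and 7.91, 7.94 and 8.03 in spleens, with no overlap. Cav1, the coat protein of caveolae, differed by 2.32 ± 0.082 and the receptor Tek by 1.60 ± 0.087. Tcf21, a factor that stromal cells of spleen and epicardium need in development, was called the other way at -1.66 ± 0.17.

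Several lists held genes called in both directions. Chemokine and chemokine receptor genes had 10 of 41 higher in heart and 17 higher in spleen, with a median of -0.0032. Clock and immediate early genes had 12 of 32 and 10, and megakaryocyte and platelet genes 5 of 16 and 9, or 2 and 5 with C57BL/6J alone. Antioxidant and detoxification genes had 23 of 42 and 10, of which 16 and 2 passed 2-fold. The metallothionein Mt1 read 13.27, 13.78 and 14.15 in hearts and 10.94, 11.18 and 11.61 in spleens, a difference of 2.52 ± 0.16, and Sod2, the mitochondrial superoxide dismutase, differed by 2.72 ± 0.060.

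**Figure D4:**
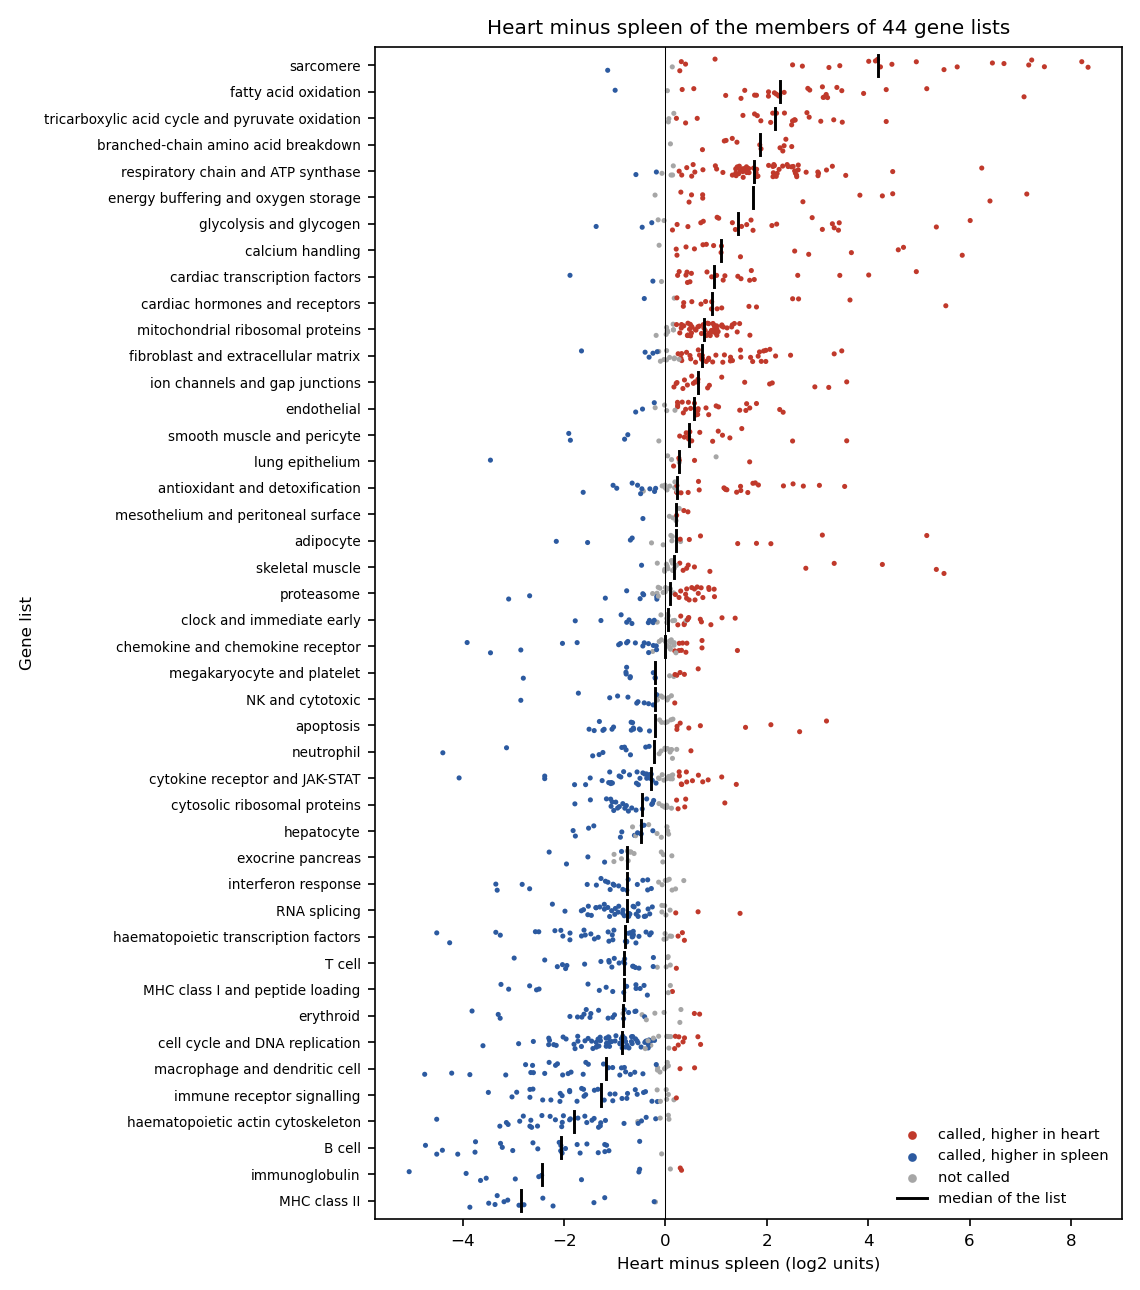
Heart minus spleen (log2 units, horizontal axis) of every measured member of the 44 gene lists, 1 list per row in order of the median, which is drawn as a black bar. Red points were called higher in heart, blue points higher in spleen and grey points not called. The sarcomere list has the highest median, 4.18, and the MHC class II list the lowest, -2.84.

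The pair was set beside liver and lung, measured in the same array run. Among 8251 genes, 249 (3.02%) were at least 2-fold higher in heart than in each of spleen, liver and lung, and 297 (3.6%) were at least 2-fold higher in spleen than in each of the other 3 tissues. Art3, an ADP-ribosyltransferase of muscle, read 11.56, 11.89 and 12.13 in hearts and 6.63, 6.86 and 7.03 in spleens, with 6.61, 6.68 and 6.85 in livers and 7.28, 7.58 and 7.96 in lungs. Nppb read 7.71, 7.87 and 8.12 in livers and 7.46, 8.15 and 8.87 in lungs, below every heart. On the spleen side, Cxcl13 read 6.27, 6.55 and 7.11 in livers and 6.69, 6.92 and 7.54 in lungs, and Spic 6.14, 6.51 and 6.58 and 5.85, 5.97 and 6.21. Those values all lay below every spleen. Genes were in part named for standing furthest above the other 3 tissues, so that such gaps follow in part from the choice. Other spleen genes were shared with lung: S100a8 read 7.36, 7.52 and 7.94 in livers and 10.72, 11.90 and 12.36 in lungs, and H2-Aa 10.28, 10.61 and 11.67 and 12.98, 13.38 and 13.79. Of the metabolic genes, Acadm read 12.76, 13.17 and 13.39 in livers and 11.23, 11.53 and 11.77 in lungs, so that it was high in liver as well.

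Heart minus spleen differed between the strains for part of the genes. The test of A/J heart minus spleen against C57BL/6J heart minus spleen called 1195 probe sets (9.62%), and among genes 383 (4.64%) had the larger value in A/J and 496 (6.01%) the smaller. These values are signed, so that a smaller one lies further towards spleen and can be the larger difference in size. In 962 of the 1195 probe sets the strains differed more in spleen than in heart, and in 233 more in heart. The median absolute strain difference over them was 0.16 in heart and 0.61 in spleen. The sign of heart minus spleen was the same in both strains for 848. Leaving out 1 array at a time gave counts of 803 to 1501. Without C57BL/6J spleens 1 and 3, the arrays with the most pancreas signal, 1 C57BL/6J spleen is left, so that no count is given.

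Many erythroid and cell cycle genes had a smaller value in A/J, that is, further towards spleen. In the erythroid list 24 of 29 genes were called with the smaller value in A/J and none with the larger, and in the cell cycle list 50 of 80 and 1. Rhag, which forms the Rh complex with Rhd, read 9.16, 9.35 and 9.12 in A/J hearts and 12.46, 12.76 and 12.61 in A/J spleens. It read 9.13, 9.41 and 9.36 in C57BL/6J hearts and 9.56, 9.10 and 9.46 in C57BL/6J spleens. In C57BL/6J the hearts and spleens overlapped, in A/J they did not, and the difference between strains was -3.33 ± 0.18 (adjusted p = 3.66e-07). Rhd gave -3.50 ± 0.22, Hemgn -5.003 ± 0.53 and Slc4a1 -3.11 ± 0.36.

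Among cell cycle genes, Rrm2, a subunit of ribonucleotide reductase, read 6.70, 6.63 and 6.70 in A/J hearts and 9.90, 10.86 and 10.32 in A/J spleens, and 6.83, 6.77 and 6.70 in C57BL/6J hearts and 7.80, 7.42 and 7.84 in C57BL/6J spleens. All 6 spleens exceeded all 6 hearts, and the A/J spleens stood highest. The difference between strains was -2.76 ± 0.26 (adjusted p = 1.25e-05), and for the condensin subunit Smc2 it was -2.85 ± 0.29. The A/J spleens were also those with the higher hepatocyte list and albumin signal and a Gapdh 3' to 5' gap of 0.578 to 0.898, against 0.482 to 0.601 in C57BL/6J spleens. The actin gap was 0.131 to 0.141 in A/J spleens and 0.093 to 0.137 in C57BL/6J spleens. The part of these signals and gaps in the differences between strains was not tested. The hepatocyte list itself had 8 of 21 genes with the smaller value in A/J, with albumin at -3.70 ± 0.63.

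Genes with the larger value in A/J were of several kinds. Ly6d, a surface protein of B cells, read 10.07, 10.08 and 10.05 in A/J hearts and 11.04, 10.86 and 11.04 in A/J spleens, and 10.05, 10.07 and 10.02 in C57BL/6J hearts and 13.49, 13.08 and 13.42 in C57BL/6J spleens. The strains were level in heart and 2 units or more apart in spleen, with a difference between strains of 2.37 ± 0.14 (adjusted p = 4.12e-07). Its other probe set gave a heart minus spleen of 0.52 and a difference between strains of 0.40, which was not called. Gimap4, a GTPase of lymphocytes, departed more in heart, where A/J was higher, and less in spleen, where A/J was lower. It read 11.47, 11.45 and 11.68 in A/J hearts and 12.32, 12.57 and 12.60 in A/J spleens, and 10.53, 10.38 and 10.60 in C57BL/6J hearts and 12.69, 13.07 and 13.02 in C57BL/6J spleens. Its difference between strains was 1.46 ± 0.17. Smooth muscle actin Acta2 gave 1.65 ± 0.19 and the muscle light chain Myl1 1.64 ± 0.20. Myl1 marks skeletal and atrial muscle, and 6 of 25 skeletal muscle genes were called with the larger value in A/J. Among sarcomere genes 2 of 25 were called.

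**Figure D5:**
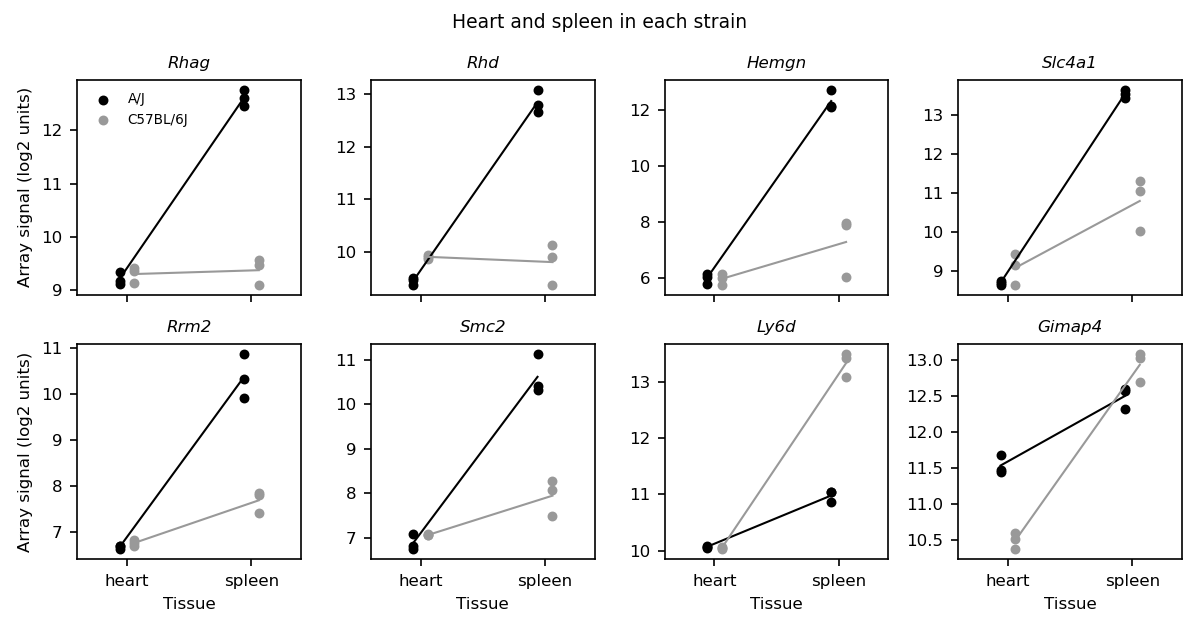
Array signal (log2 units, vertical axes) of 8 genes in hearts (left of each panel) and spleens (right), with A/J in black and C57BL/6J in grey, points for single arrays and lines between the group means. For Rhag the A/J spleens lie above the A/J hearts while the C57BL/6J points overlap. For Gimap4 the strains lie apart in heart and, in the other direction and by less, in spleen.

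The same comparison at time 1 used other arrays of the same organs, but there heart and spleen were in separate array runs, so that tissue and run cannot be told apart. There 3832 probe sets (30.8%) were called higher in heart and 4102 (33%) higher in spleen, so that more were called towards spleen at time 1 and more towards heart at time 2. At least 2-fold differences at time 1 numbered 1697 (13.7%). Of the 1830 at time 2, 1814 had the same sign at time 1 and 1476 were also called and at least 2-fold in that direction, which is 80.7% of the time 2 set and 87.0% of the time 1 set. The differences at time 2 and time 1 correlated at 0.955 across the 12422 probe sets. At each time all probe sets were read on that time's own arrays and are not independent of each other, so that the value is a description. Myl3 differed by 8.34 at time 2 and 8.72 at time 1, Cox7a1 by 6.24 and 7.17, Jchain by -5.06 and -5.42, and Hemgn by -3.82 and -4.54. The hepatocyte list was unlike, with a median of -0.48 at time 2 and 0.30 at time 1, and 7 of its 21 genes had the same sign at both. Albumin differed by -1.78 at time 2 and 1.23 at time 1, and its time 2 difference was not called without the strain term (adjusted p = 0.0502).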

How the data were processed

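The deposited values were log2 signals of 12488 probe sets in 48 MG-U74Av2 arrays, put on a common scale by the authors; how they did so was not given in the labels or files used here. The scale was read from their range, 4.30 to 14.67 in the 12 arrays used. Per the labels, each array is 1 biological replicate, with 3 per strain and tissue.

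The 66 control probe sets were left out and the values used as deposited, with no floor or filter. Tests used limma 3.58.1 in R 4.3.3 (lmFit, eBayes) with the Benjamini-Hochberg adjustment over 12422 probe sets and a limit of 0.05, and 2-fold means an estimate of at least 1 log2 unit. Strain by tissue added the interaction, and the 4-tissue comparison used the 24 time 2 arrays. The number of arrays limits the precision. The fits were tested on simulated data.

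The platform's probe table named the genes: it gave 1 symbol for 10833 probe sets and several for 396, and did not list 1193. Symbols were updated through Entrez for 10817, which left 8251 genes. Of 1726 entries in 44 gene lists 1226 were measured. Promoters (RefSeq, GRCm38.p6, matched by symbol for 6576 of the 8251 genes) were searched on both strands for the 6 motifs given in the report.

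Named genes were taken from the 15 per direction with the largest differences and no overlap between organs, up to 6 leading members and 3 contrary members per list, the listed pairs, the 8 per direction with the smallest strain by tissue p, and the 6 per direction furthest above 3 tissues. Other probe sets of a named gene are given where they disagree in sign or call. The comparison, the lists and the rule were chosen with earlier results of these data known. No list was tested as a set. Alternatives were other array sets, normalizations, filters and variance models, the strain and replicate terms, and leaving out arrays.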

Additional observations from a re-analysis of the deposited data

Results flagged for a closer look

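Genes named in the report and marker lists averaged per array were searched in the 6 hearts and the 6 spleens. The search was for a single array far from the other 5. Of 322 values 13 had 1, while chance gives about 5%, so no array stands out by the number alone. Among the hearts, A/J heart 2 accounted for 4 of them. It was low for Csrp3 at 12.74 (other hearts 12.98 to 13.08), for Eef1a2 at 13.91 (others 14.02 to 14.07) and for Kcnk3 at 10.35 (others 10.86 to 11.13), and high for the immunoproteasome subunit Psmb9 at 10.23 (others 9.45 to 9.62). C57BL/6J heart 1 was high for Prkcb at 9.27 (others 8.97 to 9.07) and low for desmin (Des) at 11.60 (others 12.50 to 12.63). C57BL/6J heart 2 was high for the lung epithelium list mean at 10.29 (others 9.56 to 9.80). Among the spleens, A/J spleen 1 was low for Ctss at 12.92 (others 13.35 to 13.58) and high for the adipocyte list mean at 9.03 (others 8.82 to 8.89). A/J spleen 2 was low for Nppa at 10.14 (others 10.55 to 10.78), and A/J spleen 3 was high for Acta1 at 8.78 (others 7.95 to 8.25). C57BL/6J spleen 1, the array with the highest pancreas signal, was high for Ckmt2 at 7.32 (others 6.74 to 6.88) and low for Mcee at 7.82 (others 8.30 to 8.58). All values are log2 signals.

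Of the 150 genes named, 44 had a called difference between strains in heart minus spleen (A/J minus C57BL/6J, log2 units, limma over all probe sets). Erythroid genes had the lowest values: Hemgn -5.003, Rhd -3.50, Rhag -3.33 and Slc4a1 -3.11. Cell cycle genes followed with Smc2 -2.85, Rrm2 -2.76, Cks2 -1.93, Fen1 -1.81 and Hmgb2 -1.64. Neutrophil and macrophage genes below 0 were S100a8 -1.58, Camp -1.38, Ngp -1.36, Spic -1.06 and Hmox1 -0.67, and the plasma cell gene was Jchain -1.41. The albumin value was Alb -3.70. Metabolic and other genes below 0 were Lpl -1.30, Bnip3 -1.31, Etfa -0.83, Psmc6 -0.97, Psmc3 -0.83 and Kcna5 -0.47.

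Values above 0 came from muscle, stroma and lymphocytes. Muscle and heart genes were Acta2 1.65, Myl1 1.64, Gja1 1.13, Pgam2 1.09, Pdk4 1.04, Nppb 0.80, Hk2 0.72, Fhl2 0.70, Fxyd1 0.66, Ankrd1 0.59, Ryr1 0.63, Slc8a1 0.58 and Abcc9 0.58. Stromal genes were Lum 1.01, Tcf21 0.95 and Cnn2 0.75. Genes of lymphocytes and other cells were Ly6d 2.37, Gimap4 1.46, Ccl5 1.04, Ifngr2 0.79, Cfl1 0.64 and Nfatc1 0.52. Of the 25 sarcomere genes 2 were called. Other probe sets did not always share the call. Strain by tissue was not called by those of Lpl (-0.70), Hk2 (0.13), Kcna5 (-0.0092), Slc8a1 (0.31 and 0.081) and Psmc3 (-0.20 and -0.52), nor by that of Ly6d. It was called by other probe sets of Mki67 (-3.64), Atp2a3 (1.42 and 0.54) and Zap70 (0.73), whose brightest probe set was not called.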

How the results depend on the processing

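The counts of probe sets called and of those at least 2-fold moved by less than 1.5 times under every alternative run but 1. Testing against 1 log2 unit (limma treat) in place of the size limit left 1161 probe sets, 562 higher in heart and 599 higher in spleen. Leaving out 1 array at a time gave 7402 to 7918 called probe sets and 1798 to 1865 of at least 2-fold. It gave 302 to 323 at least 2-fold above the other 3 tissues in heart and 418 to 459 in spleen. Strain by tissue was the least stable count: 2091 with all 48 arrays, 2039 with array weights, 874 without C57BL/6J spleen 1, and 803 to 1501 with 1 array left out. The cause was not tested. Leaving out C57BL/6J spleens 1 and 3, chosen after seeing the data, leaves 1 C57BL/6J spleen, so that its strain by tissue count is not given.

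With the replicate number as a block, 7196 probe sets were called for heart minus spleen, 1820 were at least 2-fold and 914 were called for strain by tissue. Deviations of same-numbered arrays correlated between -0.178 and 0.111, and 1 of 6 pairs lay above 0.1. The A/J values were all negative and the C57BL/6J values all positive, and 2 of 6 arrays correlated best with their own number. These values cannot show whether same-numbered arrays came from 1 mouse, because they compare different organs with few arrays per group. Quantile normalization put the median of all differences at 0.0447, against 0.0666 as deposited, and gave 7825 called probe sets.

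Of 3593 comparisons of named genes with an alternative, 2 reversed. The mean over all probe sets of the gene was -0.98 for Mki67 and -0.65 for Zap70. Another 4 lost the call, 3 of them for albumin and 1 for Zap70. Of 965 comparisons of the 44 strain by tissue values 123 lost the call and none turned direction. Acta2, Alb, Gimap4, Hemgn, Ly6d, Myl1, Rhag, Rhd, Rrm2, Slc4a1 and Smc2 kept theirs under every alternative run. Part of the 44 genes were named for the smallest p of this test, so that a kept call follows in part from the choice. Of 220 recounts of lists, 7 moved by over 1.5 times, each given beside its list. Signal over background was not assessed, and the normalization of the deposited values is not known.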

Other observations

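Several lists not described above mixed both directions. Cytokine receptor and JAK-STAT genes had 12 of 52 higher in heart and 29 higher in spleen (median -0.29). Ltb, the lymphotoxin beta chain that shapes lymphoid tissue, read 9.12, 9.21 and 9.60 in hearts and 12.98, 13.32 and 13.70 in spleens, a difference of -4.07 ± 0.11, while the growth hormone receptor Ghr and the interferon gamma receptor chain Ifngr2 differed by 1.11 ± 0.10 and 1.397 ± 0.14. Apoptosis genes had 9 of 30 and 15. Bnip3, a mitochondrial death and mitophagy protein, differed by 2.65 ± 0.20, Bid by -1.51 ± 0.12 and Casp1 by -1.41 ± 0.14. Smooth muscle and pericyte genes had 15 of 20 and 4, with desmin (Des) at 2.51 ± 0.16 and calponin 2 (Cnn2) at -1.88 ± 0.14.

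Among adipocyte genes 8 of 18 were higher in heart and 4 higher in spleen. Cidea, a lipid droplet protein of brown fat, read 8.71, 9.01 and 9.30 in hearts and 6.81, 6.94 and 7.21 in spleens, a difference of 2.08 ± 0.088, and the stearoyl-CoA desaturase Scd1 differed by -2.15 ± 0.16, with -2.87 and -0.042 for its other probe sets. Skeletal muscle genes had 11 of 25 and 1. Ryr1, the calcium release channel of skeletal muscle, was the 1 called higher in spleen, at -0.47 ± 0.12 with overlapping ranges. Lung epithelium genes had 5 of 10 and 1, or 3 higher in heart with C57BL/6J alone, and mesothelium genes 3 of 8 and 1.

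The counts for the exocrine pancreas and hepatocyte lists changed with the arrays used. Of 17 exocrine pancreas genes 5 were called higher in spleen, and 3 without C57BL/6J spleens 1 and 3. Of 21 hepatocyte genes 13 were called higher in spleen, and 1 with C57BL/6J alone. With all 12 arrays none of either list was called higher in heart. Without C57BL/6J spleens 1 and 3, 3 exocrine pancreas genes were called higher in heart. With A/J alone 2 were, against 3 higher in spleen, and with C57BL/6J alone 2 hepatocyte genes were. Immunoglobulin genes had 10 of 13 higher in spleen and 2 higher in heart, Igll1 at 0.29 ± 0.076 and Iglc1 at 0.32 ± 0.067, the ranges of Igll1 overlapped and its other probe set, at 0.064, was not called.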
